A study of Homo sapiens with 24 samples.

Results

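T47D-co breast cancer cells were compared with T47D-Y breast cancer cells after both had been given interferon alpha (IFN), over all genes and with attention to the levels that interferon-induced genes reached. The comparison took 6 of the 24 libraries of the study, 3 of T47D-co and 3 of T47D-Y, chosen by the cell line and the treatment in their labels. T47D is a human luminal breast cancer line, and both lines are variants of it. T47D-co is labelled positive for the progesterone receptor (PR) and T47D-Y is labelled PR null. In all 6 libraries the cells had received 20 IU/ml IFN for 18 h and then ethanol (EtOH), the vehicle of the synthetic progestin R5020, for 6 h. The other 18 libraries were T47D-co and T47D-Y given water in place of IFN, with EtOH, and both lines given 10 nM R5020 for 6 h after IFN or after water, 3 libraries for each line and treatment. The label text calls the 3 libraries of a group biologic replicates. Each PR state is represented by 1 line, so PR and every other difference between the lines cannot be told apart.

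Type I interferon binds a cell-surface receptor made of IFNAR1 and IFNAR2, whose kinases JAK1 and TYK2 phosphorylate STAT proteins. STAT2 and IRF9 are subunits of the factor ISGF3, which binds the interferon-stimulated response element (ISRE) in promoters and switches on the interferon-stimulated genes. Their products degrade or block viral RNA, trap virus particles, tag proteins with ISG15 and load peptides for immune recognition, while SOCS proteins and USP18 act as brakes on the receptor.

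A set of interferon-raised genes was chosen by the rise with IFN in the 12 libraries given R5020, with and without IFN. The set holds the 37 genes that rose at least 2-fold with IFN in both lines in those 12 libraries. The 6 libraries compared here gave none of those rises. They did share the filter, the scale and the variance estimate of the one fit, so the choice is not wholly independent of them. RefSeq promoters (GRCh38.p14) were found for 29 of the 37, and the 250 bases before each start were searched on both strands for the ISRE core (GAAA, any 2 bases, GAAA). It was present in 17 of the 29 (58.6%), against 3.02% of the 35116 promoters in the same reference. The core of the gamma-activated sequence (GAS), TTCNNNGAA, was present in 5 of the 29 (17.2%), against 6.57% of all promoters. The ISRE core stood in 9 of the 18 matched genes that were lower in T47D-co given IFN, in 1 of the 3 that were higher and in 7 of the 8 that passed no test between the lines. A match of letters is a description of these windows and says nothing of binding.

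The promoters of ISG15 and IFI6, a pair of genes whose levels with IFN did not differ past the test between the lines, are shown with those of IFI44L and IFI27, a pair that ended lower in T47D-co. Each is the 250 bases before the start, 5′ to 3′ on the strand of the gene, with matches to the ISRE core in capitals (overlapping matches run together, and a match on the other strand reads TTTC, 2 bases, TTTC). ISG15 lies at chr1:1013247-1013496, plus strand, IFI6 at chr1:27672193-27672442, minus strand, IFI44L at chr1:78620198-78620447, plus strand, and IFI27 at chr14:94110486-94110735, plus strand.
ISG15: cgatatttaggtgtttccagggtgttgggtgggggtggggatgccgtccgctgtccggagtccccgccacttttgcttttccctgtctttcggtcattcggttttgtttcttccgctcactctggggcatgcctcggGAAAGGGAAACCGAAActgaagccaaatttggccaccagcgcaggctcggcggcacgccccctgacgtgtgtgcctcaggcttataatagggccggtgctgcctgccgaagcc
IFI6: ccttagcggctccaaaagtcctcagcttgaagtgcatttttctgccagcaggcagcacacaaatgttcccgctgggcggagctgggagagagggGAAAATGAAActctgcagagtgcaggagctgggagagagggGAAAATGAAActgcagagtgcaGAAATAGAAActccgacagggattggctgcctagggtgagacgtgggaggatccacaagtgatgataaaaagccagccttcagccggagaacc
IFI44L: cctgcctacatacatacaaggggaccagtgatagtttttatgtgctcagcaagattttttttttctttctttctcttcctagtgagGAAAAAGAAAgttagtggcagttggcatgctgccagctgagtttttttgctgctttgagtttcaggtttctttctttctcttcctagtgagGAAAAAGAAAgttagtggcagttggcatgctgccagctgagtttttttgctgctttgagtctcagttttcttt
IFI27: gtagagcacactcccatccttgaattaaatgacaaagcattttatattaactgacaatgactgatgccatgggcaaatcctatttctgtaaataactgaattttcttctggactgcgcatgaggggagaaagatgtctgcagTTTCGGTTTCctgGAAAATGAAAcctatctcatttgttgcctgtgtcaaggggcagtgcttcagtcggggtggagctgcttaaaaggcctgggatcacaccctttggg
ISG15 held 2 overlapping matches, IFI6 held 3, and IFI44L and IFI27 held 2 each. The core was thus present in both genes of each pair.

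The 3 libraries of T47D-co given IFN held 15977693 to 20763640 estimated fragments and those of T47D-Y given IFN held 14141273 to 20729741. All values below are these estimated fragments after all 24 libraries were put on one scale, and are called scaled fragments. Mitochondrial genes took 4.22 to 4.74% of the fragments in T47D-co and 4.06 to 4.47% in T47D-Y. Correlations of log2 values across genes were 0.983 to 0.986 within a line and 0.906 to 0.909 between the lines. PGR, the progesterone receptor gene, had 26815, 24903 and 26172 scaled fragments in T47D-co, against 642, 651 and 676 in T47D-Y, so the PR null line was not at 0. Markers of luminal epithelium summed to 96212 to 100588 scaled fragments in T47D-co and 107387 to 115378 in T47D-Y, with none of the 8 at 0. Markers of basal epithelium (2 of 4 had an entry) summed to 20.96 to 49.95 in T47D-co and 185.6 to 230.3 in T47D-Y, almost all from TP63. Leukocyte markers (7 of 12 had an entry) summed to 66.97 to 91.1 in T47D-co and 57.12 to 67.78 in T47D-Y. Fibroblast and endothelial markers (4 of 11 had an entry) summed to 831.9 to 942.2 in T47D-co and 403 to 494.9 in T47D-Y. The latter came largely from COL1A1 and ACTA2. Markers with no entry of their own could not be read, so these sums do not cover the full lists. Any part of other cells in the results was not tested. In bulk RNA, a change in the number of cells that express a gene and a change in RNA per cell cannot be told apart.

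The lines differed at most genes. Of the 20160 genes tested (those that reached 10 scaled fragments in 3 or more libraries), 12629 were called (62.6%) at an adjusted p under 0.05. T47D-co was higher at 5967 (29.6%) and lower at 6662 (33%). Differences of at least 2-fold were fewer, with 1539 genes higher in T47D-co (7.63%) and 2442 lower (12.1%). The median log2 difference, T47D-co minus T47D-Y on the log2(scaled fragments + 1) scale used throughout, was -0.03, and the median size without sign was 0.41. The 3 values of T47D-co lay wholly above those of T47D-Y for 6229 genes (30.9%) and wholly below for 6926 (34.4%). This scale understates differences of genes with few fragments. The libraries had been normalized by the authors in blocks of 6 that coincide with line and IFN, and a block and its groups cannot be told apart.

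Most of these differences were also present without IFN. In the 6 libraries given water and EtOH, 12731 genes were called (63.1%), 5986 higher in T47D-co (29.7%) and 6745 lower (33.5%). In both sets 11106 genes were called in the same direction, 87.9% of the calls with IFN and 87.2% of those without. Only 17 genes were called in opposite directions, 12 of them lower in T47D-co with IFN and higher without it. Of the 17, 9 belong to the lists of antiviral genes (83 tested) and antigen-presentation genes (11 tested), where 20160 genes were tested in all. Those lists were chosen with earlier results of these data known, so this count is not independent of the data. A test of the change itself, the line-by-IFN interaction, called 76 genes (0.377%), 63 negative (0.312%) and 13 positive (0.0645%). Among the 63, 13 were higher in T47D-co without IFN and passed no test with it, 10 were higher without IFN and lower with it, 18 were higher in both, 18 were lower in both, and 4 were lower in T47D-co with IFN with no call without it. Among the libraries given water, 4 stood apart in their mitochondrial share, with 0.942 to 1.07%, against 3.17 to 4.74% in the other 20 libraries of the study. These were T47D-co replicate 2 and T47D-Y replicate 1 given water and EtOH, and T47D-Y replicates 1 and 2 given water and R5020. Without those 4 libraries 52 genes were called for the interaction and 11354 between the lines without IFN. The interferon-raised set, which T47D-Y replicates 1 and 2 given water and R5020 helped to choose, was not chosen anew without them.

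**Figure D1:**
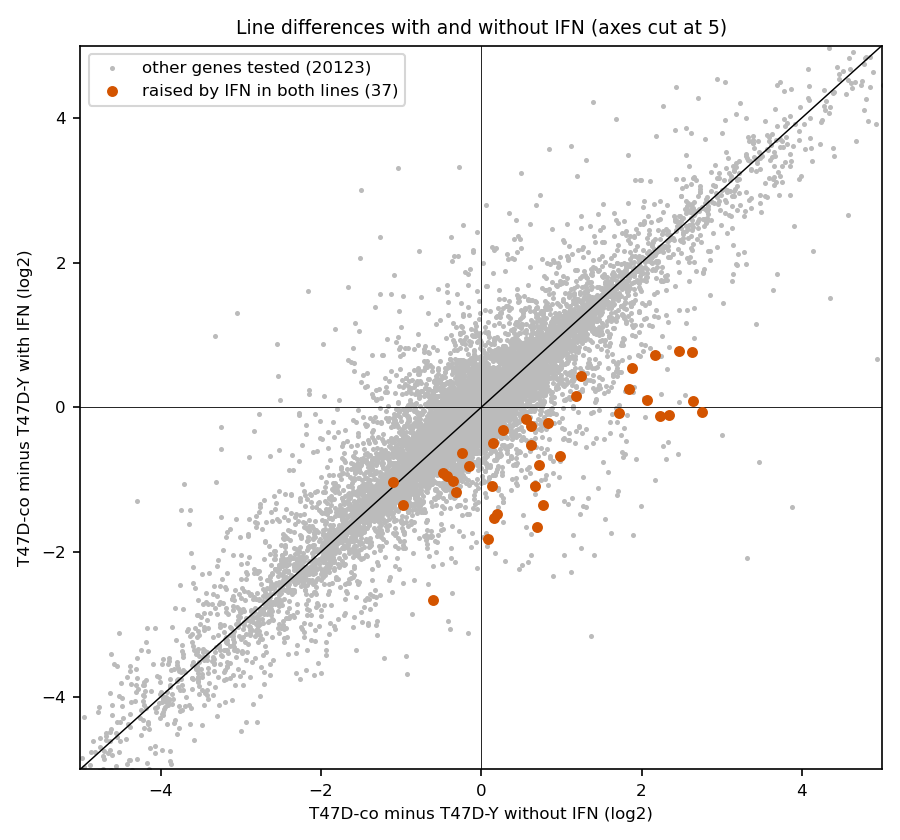
Log2 difference of T47D-co minus T47D-Y with IFN (vertical) against the same difference without IFN (horizontal) for the 20160 genes tested, with the 37 interferon-raised genes in orange and the line of equality. Most genes lie along the line, while 36 of the 37 interferon-raised genes lie below it.

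Of the 37 interferon-raised genes, 20 ended lower in T47D-co with IFN (54.1%, against 33% of all genes), 4 were higher (10.8%, against 29.6%) and 13 passed no test. The share called in either direction, 64.9%, was near that of all genes (62.6%), so passing no test was about as frequent among the 37 as elsewhere. The median difference of the 37 was -0.52, against -0.03 over all genes. Without IFN 18 of the 37 were higher in T47D-co (48.6%) and 6 were lower (16.2%), with a median of 0.67 against -0.04 over all genes. Relative to T47D-Y, 36 of the 37 stood lower in T47D-co with IFN than without it. The exception was C19orf66. The median of this change was -1.44 for the 37, against -0.006 over all genes. For 19 of the 37 the size of the difference was smaller with IFN than without. The median size without sign was 0.73 with IFN and 0.72 without, against 0.41 and 0.40 over all genes. The interval of the difference lay within 2-fold in either direction for 17 of the 37 (45.9%), against 12584 of all genes (62.4%). Of the 37, 19 share their locus with another entry, for which the authors' software divided the fragments.

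**Figure D2:**
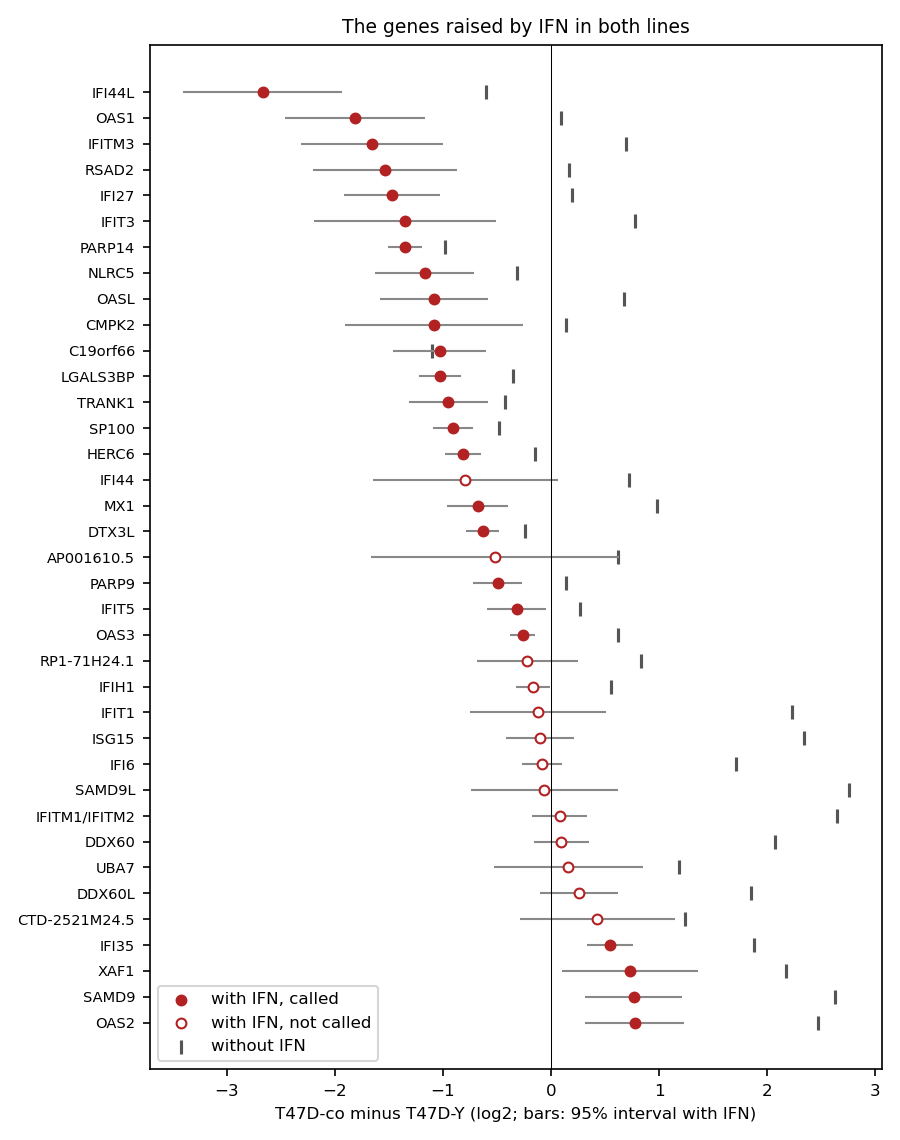
Difference between T47D-co and T47D-Y given IFN for each of the 37 interferon-raised genes, with 95% intervals, and the difference without IFN as a tick. Values run from -2.67 (IFI44L) to 0.77 (OAS2), and the ticks stand to the right of the points for 36 genes.

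One group of interferon-raised genes had no call between the lines given IFN, although T47D-co was higher without IFN. ISG15, the ubiquitin-like protein that is attached to other proteins after IFN (chr1:948802-949920, hg19), had 473, 545 and 547 scaled fragments in T47D-co, against 525, 597 and 554 in T47D-Y. The 2 sets of values overlapped. Their difference was -0.10 ± 0.15 (SE, n = 3 each, adjusted p = 0.59), with a 95% interval of -0.41 to 0.21. Without IFN ISG15 had 72.2, 59.9 and 64.5 in T47D-co and 9.92, 14.0 and 12.8 in T47D-Y, a difference of 2.34 (adjusted p = 6.3e-13), with every T47D-co library above every T47D-Y library.

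IFI6, a small membrane protein that limits flavivirus replication, was the most abundant in fragments among the genes named in this group. It had 3368, 3522 and 3180.0 scaled fragments in T47D-co, against 3433, 3666 and 3559 in T47D-Y, and the lines overlapped. The difference was -0.08 ± 0.09 (adjusted p = 0.44, interval -0.27 to 0.10), against 1.71 without IFN (adjusted p = 9e-15). The helicase DDX60 had 619.8, 587 and 745 in T47D-co and 588, 558 and 679 in T47D-Y given IFN, which also overlapped. Its difference was 0.09 ± 0.12 (adjusted p = 0.52, interval -0.16 to 0.35), against 2.07 without IFN. The merged entry of IFITM1 and IFITM2, restriction factors that hinder virus entry, had 883, 899 and 902 in T47D-co and 769.7, 882 and 888 in T47D-Y. Overlap was present here too, with a difference of 0.08 ± 0.12 (adjusted p = 0.58, interval -0.17 to 0.34), against 2.64 without IFN. For these 4 genes the interval lies within 2-fold.

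IFIT1 and SAMD9L had no call either, but with wide intervals. IFIT1, which binds foreign RNA caps, had 887, 818 and 947 scaled fragments in T47D-co and 775, 1074 and 1067 in T47D-Y, with T47D-Y libraries on both sides of T47D-co. The interval of its difference was -0.75 to 0.50 (adjusted p = 0.74), and the sum of its shared locus was lower in T47D-co by a called -0.17. SAMD9L, an antiviral and growth-restraining protein, had 44.1, 59.9 and 96.0 in T47D-co and 67.9, 69.4 and 61.8 in T47D-Y. The T47D-co libraries spread widely, and the interval was -0.74 to 0.62 (adjusted p = 0.88). DDX60L was not called either (0.26 ± 0.17, adjusted p = 0.21), although all 3 T47D-co libraries lay above T47D-Y and its shared locus, summed, was called at 0.99. UBA7, the enzyme that activates ISG15, had a difference of 0.16 ± 0.33 (adjusted p = 0.69).

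**Figure D3:**
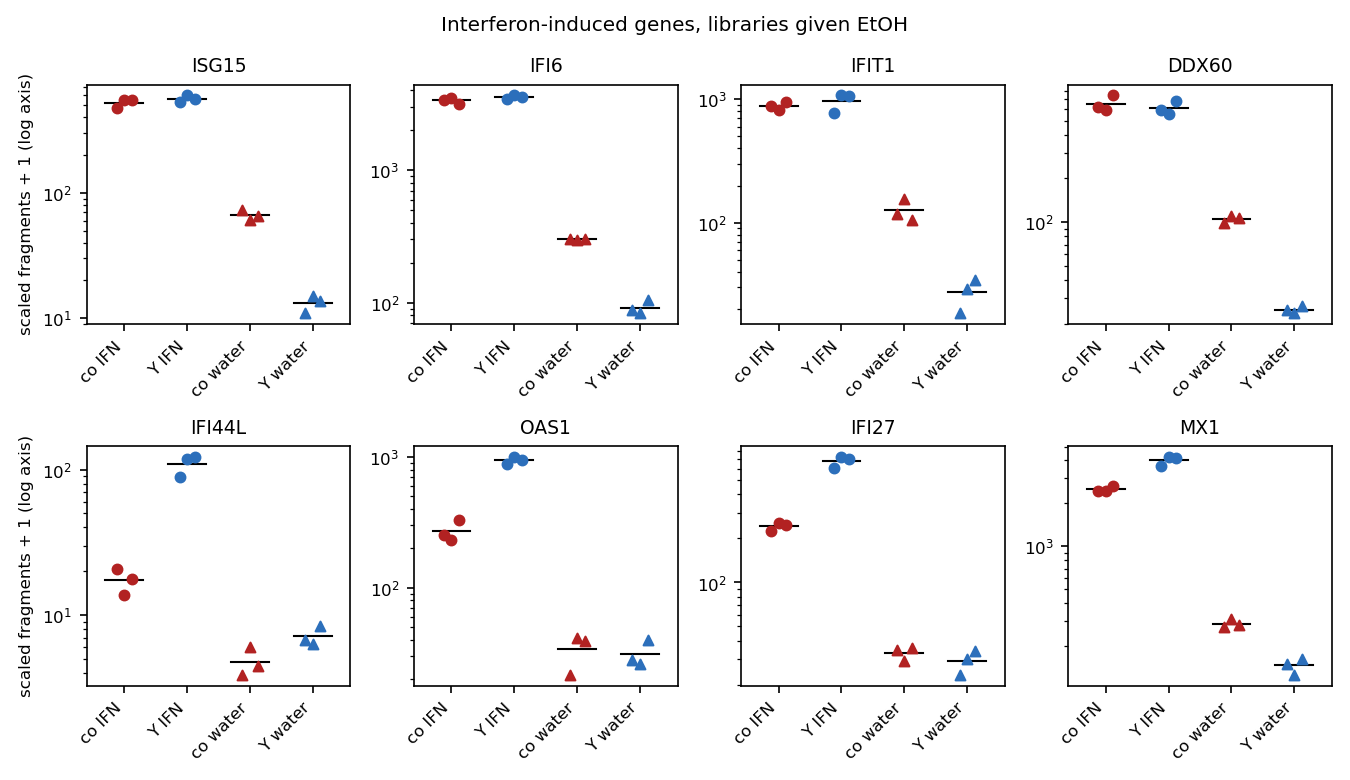
Scaled fragments plus 1 (log axis) of 8 interferon-raised genes in each library given EtOH, for T47D-co (red) and T47D-Y (blue) given IFN (circles) or water (triangles), with group means as bars. In the top row the IFN groups overlap while the water groups do not, and in the bottom row T47D-co given IFN lies below T47D-Y given IFN in every library.

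Another, larger group ended lower in T47D-co. IFI44L, an interferon-induced protein that restrains the response as well as some viruses, had 19.9, 12.7 and 16.6 scaled fragments in T47D-co, against 87.4, 118 and 121 in T47D-Y (chr1:79085606-79108484, hg19). All T47D-co libraries lay far below all T47D-Y libraries. The difference was -2.67 ± 0.36 (adjusted p = 4e-07), the largest among the 37, and was -0.61 without IFN, where it was not called (adjusted p = 0.14).

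OAS1, which makes the messenger that activates RNase L, had 249, 229 and 330.1 scaled fragments in T47D-co, against 877, 999 and 949 in T47D-Y (chr12:113344581-113455556 is the joint locus of OAS1, OAS2 and OAS3). The groups were well apart. The difference was -1.82 ± 0.31 (adjusted p = 1.7e-05); summed over the locus it was -0.25, also called. IFITM3, which blocks fusion of incoming viruses, had 21.7, 21.3 and 39.8 in T47D-co and 79.6, 89.8 and 87.7 in T47D-Y. The highest T47D-co library lay well under the lowest of T47D-Y, and the difference was -1.66 ± 0.32 (adjusted p = 7e-05), or -1.07 over its shared locus. RSAD2, the enzyme viperin, had 34.2, 35.1 and 55.7 in T47D-co and 107, 121 and 130.4 in T47D-Y, again with no overlap (-1.53 ± 0.32, adjusted p = 0.0002).

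IFI27, a mitochondrial and nuclear envelope protein, had 223, 254 and 248 scaled fragments in T47D-co, against 602, 722 and 695 in T47D-Y. Every T47D-co library lay far below the lowest T47D-Y library. It lies at chr14:94571181-94583033 (hg19). The difference was -1.47 ± 0.22 (adjusted p = 1.6e-06), while without IFN it was 0.19 (adjusted p = 0.45); the interaction was called at -1.67 (adjusted p = 0.0062). IFIT3, a partner of IFIT1, had 92.4, 68.7 and 115 in T47D-co and 168, 272 and 270.3 in T47D-Y. The groups did not overlap (-1.35 ± 0.41, adjusted p = 0.0055), but its shared locus as a sum differed by -0.17. PARP14, a mono-ADP-ribosyltransferase, had 823, 683 and 816 in T47D-co and 1796, 2026 and 2083 in T47D-Y, a difference of -1.35 ± 0.08 (adjusted p = 3e-14). Unlike the genes before it, PARP14 was also called lower in T47D-co without IFN (-0.98, adjusted p = 1.7e-11).

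The remaining members of the lower group had smaller differences. NLRC5, the activator of MHC class I genes, differed by -1.17 ± 0.22 (adjusted p = 5.2e-05). LGALS3BP, a secreted glycoprotein, differed by -1.02 ± 0.09 (adjusted p = 5.1e-10). SP100, a nuclear body protein, differed by -0.90 ± 0.09 (adjusted p = 2.2e-09), and HERC6, of the HERC ubiquitin ligase family, by -0.81 ± 0.08 (adjusted p = 2.9e-09). DTX3L, the ubiquitin ligase that works with PARP9, differed by -0.63 ± 0.07 (adjusted p = 3.8e-08). IFIT5 was called at -0.32, with the call lost in turn without T47D-Y replicate 2 (-0.25), T47D-Y replicate 3 (-0.32), T47D-co replicate 1 (-0.33) or T47D-co replicate 2 (-0.21). TRANK1 (-0.95 ± 0.18), PARP9 (-0.49 ± 0.11), C19orf66 (-1.03 ± 0.21) and CMPK2 (-1.08 ± 0.40) complete the group with OASL, MX1 and OAS3, which are given below. CMPK2 lost its call without T47D-Y replicate 2 (-0.97), T47D-Y replicate 3 (-1.03) or T47D-co replicate 1 (-0.88). TRANK1, PARP9, C19orf66 and CMPK2, outside the rule for named genes, were named after their values were seen. Without IFN, LGALS3BP (-0.35), SP100 (-0.48), DTX3L (-0.24), TRANK1 (-0.42) and C19orf66 (-1.10) were also called lower in T47D-co. NLRC5, HERC6, IFIT5, PARP9 and CMPK2 had no call between the lines without IFN.

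Only 4 of the 37 ended higher in T47D-co. SAMD9, a relative of SAMD9L with antiviral action, had 325, 288 and 349.8 scaled fragments in T47D-co, against 159.9, 208 and 199 in T47D-Y. The lowest T47D-co library lay above the highest of T47D-Y, with a difference of 0.77 ± 0.22 (adjusted p = 0.0034) against 2.63 without IFN. IFI35, which forms a complex with NMI, had 309.9, 341 and 353 in T47D-co and 214, 259 and 217 in T47D-Y, also apart (0.54 ± 0.10, adjusted p = 6.1e-05). XAF1, a proapoptotic interferon effector, had 88.2, 70.8 and 104 in T47D-co and 33.4, 64.0 and 65.8 in T47D-Y. It was called at 0.73 ± 0.30 (adjusted p = 0.041), but not without T47D-Y replicate 1 (0.41), T47D-co replicate 1 (0.71) or T47D-co replicate 3 (0.59). OAS2 had 1039, 1015 and 1259 in T47D-co and 538, 684 and 719 in T47D-Y, a difference of 0.77 ± 0.22 (adjusted p = 0.0038). This direction rests on how fragments were divided within the OAS locus, whose sum was lower in T47D-co (-0.25, called).

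Several antiviral genes were higher in T47D-co without IFN and lower in T47D-co with it, both called. MX1, a dynamin-like GTPase that blocks influenza and other viruses, had 2458, 2444 and 2630.3 scaled fragments in T47D-co given IFN, against 3664, 4228 and 4187 in T47D-Y given IFN. Without IFN it had 272, 310.3 and 279 in T47D-co, against 150.2, 125 and 163 in T47D-Y, so the order of the lines turned with no overlap in either condition. Its differences were -0.68 ± 0.14 with IFN and 0.98 ± 0.14 without (adjusted p = 0.00012 and 8.3e-07), and the interaction was -1.66 (adjusted p = 1.5e-05). It lies at chr21:42792230-42831141 (hg19).

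SAMHD1, which depletes deoxynucleotides and so restricts retroviruses, had 1696, 1425 and 1602 in T47D-co and 1724, 1872 and 1900.3 in T47D-Y given IFN, with every T47D-co library just below. Its difference was -0.22 ± 0.06 with IFN and 0.91 ± 0.06 without (adjusted p = 0.0014 and 2.5e-13). OAS3 turned likewise, with -0.26 ± 0.06 with IFN and 0.62 ± 0.06 without (adjusted p = 0.00025 and 3.9e-10). B2M, the invariant chain of MHC class I molecules, had 2394, 2254 and 2510.1 in T47D-co and 2688, 2822 and 2841 in T47D-Y given IFN. It differed by -0.22 ± 0.05 with IFN and 0.28 ± 0.05 without (adjusted p = 0.00025 and 1.4e-05), although on the deposited scale the value without IFN was 0.05 and not called.

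OASL, an OAS relative that boosts RNA sensing, differed by -1.08 ± 0.24 with IFN and 0.67 ± 0.24 without (adjusted p = 0.0004 and 0.019). The second of these was not called on the deposited scale (0.45) or without the 4 libraries that stand apart (0.47). It was also not called without T47D-Y water replicate 1 (0.50) or without T47D-co water replicate 3 (0.51). IFIT2, a proapoptotic IFIT protein, differed by -0.96 ± 0.33 with IFN and 1.27 ± 0.33 without (adjusted p = 0.014 and 0.0018). The value with IFN was not called without T47D-Y replicate 2 (-0.87) or T47D-co replicate 2 (-0.81). Outside the rule for named genes, and named after their values were seen, PML (-0.36 with IFN and 0.27 without), HELZ2 (-0.29 and 0.63) and RNF213 (-0.11 and 0.12) also turned. RNF213 lost its call with IFN on the deposited scale (-0.05) and without T47D-co replicate 1 (-0.09).

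Among the genes of the receptor and the JAK-STAT pathway, 9 entries were tested, of which 2 were higher in T47D-co (22.2%, against 29.6% of all genes) and 5 were lower (55.6%, against 33%). Without T47D-Y replicate 1 the number higher was 1. STAT2, the ISGF3 subunit particular to type I and type III interferon signalling, had 1190.0, 1186 and 1179.8 scaled fragments in T47D-co, against 2852, 2991 and 3028 in T47D-Y. The T47D-co libraries lay close together and far below the lowest T47D-Y library. The difference was -1.32 ± 0.04 (adjusted p = 3.4e-19), and was called without IFN as well (95% interval -1.09 to -0.91, adjusted p = 1.1e-16). STAT2 lies at chr12:56735380-56753939 (hg19) and shares its locus with no other entry.

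IFNAR1, the signalling chain of the receptor, had 1256, 1221 and 1349 scaled fragments in T47D-co, against 1699, 1486 and 1598 in T47D-Y, with no overlap (-0.32 ± 0.05, adjusted p = 1.5e-06). IFNAR2, the chain that binds IFN first, stands in a merged entry with IL10RB, a receptor chain for lambda interferons. That entry, named after its values were seen, had 582, 531 and 530.5 in T47D-co and 1177, 1036 and 1140.4 in T47D-Y (-1.03 ± 0.06, adjusted p = 6e-14), and the part of each gene cannot be told apart. JAK1 differed by -0.17 ± 0.03 (adjusted p = 3.5e-05), while TYK2, named after its values were seen, had no call (-0.06 ± 0.07, adjusted p = 0.48). STAT3, which answers cytokines of the IL-6 family, was higher in T47D-co (0.30 ± 0.03, adjusted p = 3.7e-09). IRF9, the DNA-binding subunit of ISGF3, is merged with RNF31, and the entry had 761, 770.2 and 669 in T47D-co and 876, 976 and 838 in T47D-Y (-0.29 ± 0.07, adjusted p = 0.00084; named after its values were seen).

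Of the 6 interferon regulatory factors tested, 2 were higher in T47D-co (33.3%, against 29.6% of all genes) and 1 was lower (16.7%, against 33%), or 2 lower without T47D-co replicate 1. IRF7, the factor that amplifies type I interferon production, had 357, 393 and 376 scaled fragments in T47D-co and 347, 392 and 319.8 in T47D-Y, which overlapped. Its difference was 0.09 ± 0.10 (adjusted p = 0.42, interval -0.11 to 0.29), against 0.87 without IFN (adjusted p = 1.5e-08). IRF1, an activator shared with interferon gamma signalling, had 83.8, 73.6 and 74.7 in T47D-co and 125, 152 and 147 in T47D-Y. All its T47D-co values lay below those of T47D-Y (-0.86 ± 0.13, adjusted p = 3.8e-06). IRF3, which starts interferon gene transcription after RNA sensing, was slightly higher in T47D-co (0.17 ± 0.05).

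Of 14 brakes of the pathway, 5 were higher in T47D-co (35.7%, against 29.6% of all genes) and 6 were lower (42.9%, against 33%). SOCS3, which blocks JAK kinases at cytokine receptors, had 8.82, 9.99 and 5.93 scaled fragments in T47D-co, against 35.7, 54.0 and 35.5 in T47D-Y. Every T47D-co library was far below (-2.21 ± 0.33, adjusted p = 1.8e-06). SOCS1, the main SOCS brake on interferon signalling, had 6.32, 7.82 and 8.10 in T47D-co and 47.7, 46.2 and 37.4 in T47D-Y (-2.41 ± 0.35, adjusted p = 1.6e-06), but its shared locus as a sum was higher in T47D-co (0.20, called). Both SOCS genes were named after their values were seen. CISH, a SOCS family member induced through STAT5, went the other way with 351, 364 and 306 in T47D-co and 75.9, 72.1 and 80.3 in T47D-Y (2.14 ± 0.14, adjusted p = 5.1e-13; 0.34 for its shared locus).

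USP18, which removes ISG15 from proteins and holds back IFNAR2 signalling, had 121, 132 and 133 in T47D-co and 145, 197 and 184 in T47D-Y. The groups did not overlap (-0.43 ± 0.17, adjusted p = 0.029), but the call was lost without T47D-Y replicate 2 (-0.34), T47D-Y replicate 3 (-0.39) or T47D-co replicate 1 (-0.39). PTPN11, the phosphatase SHP2, was higher in T47D-co (0.66 ± 0.03, adjusted p = 4.6e-17), and PTPN1, a phosphatase that acts on JAK2 and TYK2, was lower (-0.44 ± 0.03, adjusted p = 1.6e-13). PIAS2, which inhibits activated STATs, was higher (0.40 ± 0.05, adjusted p = 3.5e-08), with no call for its shared locus (0.06).

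**Figure D4:**
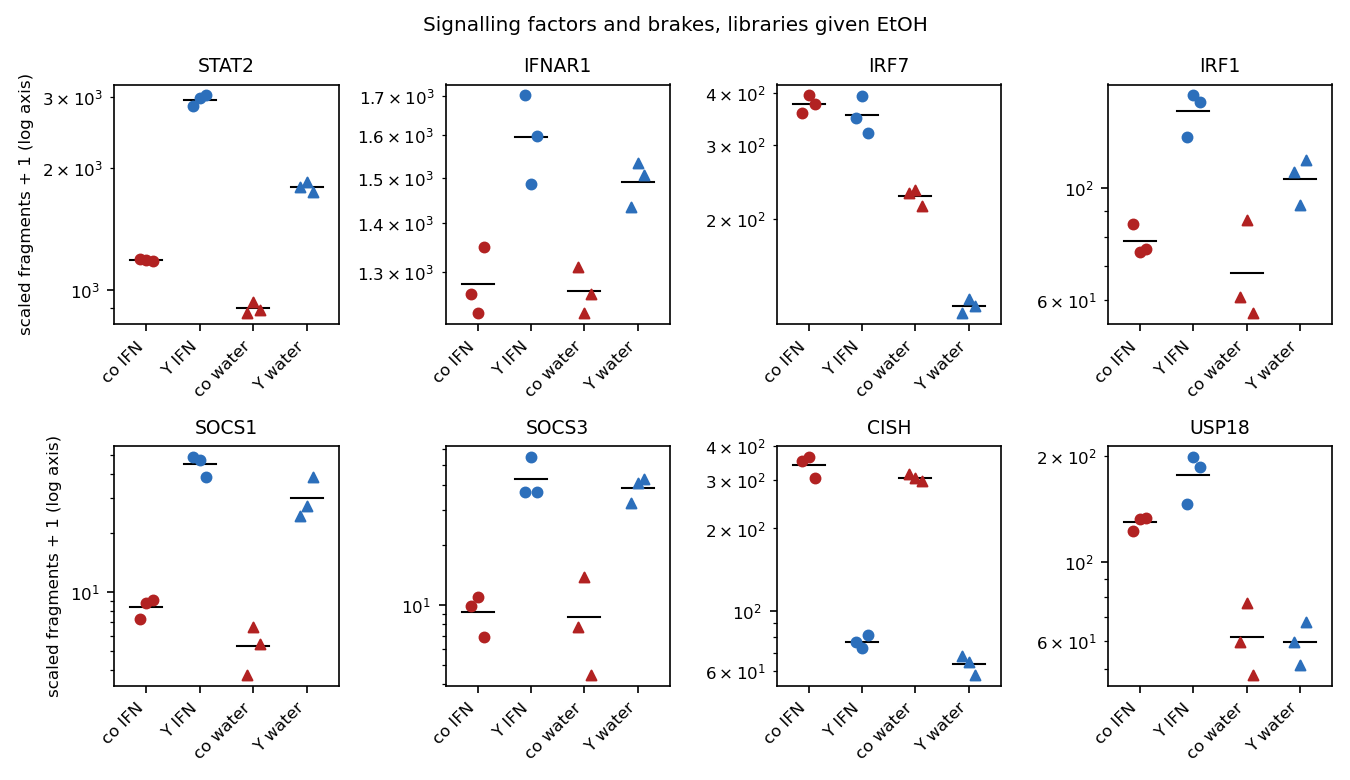
Scaled fragments plus 1 (log axis) of signalling factors and brakes in each library given EtOH, for T47D-co (red) and T47D-Y (blue) given IFN (circles) or water (triangles), with group means as bars. STAT2, IRF1, SOCS1 and SOCS3 lie lower in T47D-co with IFN, CISH lies higher, and IRF7 overlaps between the lines given IFN; the summed locus of SOCS1 runs the other way.

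Over the 10 lists of antiviral effectors, 83 genes were tested, and 16 were higher in T47D-co with IFN (19.3%, against 29.6% of all genes) while 48 were lower (57.8%, against 33%). Their median difference was -0.29 with IFN and 0.16 without it. Without IFN 36 of the 83 were higher in T47D-co (43.4%, against 29.7% of all genes) and 19 were lower (22.9%, against 33.5%). The interaction was negative and called for 30 of the 83, against 0.312% of all genes. In the 6 libraries given R5020 after IFN, which are separate from those compared here, 11 were higher in T47D-co and 59 were lower, where the shares over all genes were 32.5% higher and 35.8% lower. The lists were chosen with earlier results of these data known and hold several of the interferon-raised genes. Their shares are therefore not independent of that set or of these data.

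Sensors and helicases gave 3 higher (21.4%, against 29.6% of all genes) and 7 lower (50%, against 33%) in T47D-co of 14 tested, with 1 higher without T47D-Y replicate 1 or without T47D-co replicate 2. ADAR, which edits double-stranded RNA, had 8523, 8036 and 8479 scaled fragments in T47D-co, against 10777, 10972 and 11062 in T47D-Y, a difference of -0.39 ± 0.03 with no overlap (adjusted p = 6.1e-13). EIF2AK2, the RNA-activated kinase PKR, had 3377, 2902 and 3329.6 in T47D-co and 4909, 5262 and 5503 in T47D-Y (-0.71 ± 0.06, adjusted p = 5.4e-10). ZNFX1, an RNA sensor at mitochondria, was lower in T47D-co as well (-0.42 ± 0.03, adjusted p = 1.5e-11). IFI16, a DNA sensor, was higher but scarce, with 9.93, 17.3 and 13.0 in T47D-co and 3.45, 5.40 and 3.95 in T47D-Y; its call (1.44 ± 0.52) was lost without T47D-Y replicate 1 (1.32) or T47D-co replicate 2 (1.25).

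Among 10 restriction factors 2 were higher in T47D-co (20%, against 29.6% of all genes) and 6 were lower (60%, against 33%). BST2, or tetherin, which holds budding virions at the membrane, had 4223, 4171 and 4011 scaled fragments in T47D-co, against 3533, 3836 and 3673 in T47D-Y, with all T47D-co libraries above (0.17 ± 0.03, adjusted p = 0.00011). ZC3HAV1, which targets viral RNA rich in CpG, was lower (-0.51 ± 0.05, adjusted p = 2.3e-10). In the ISG15 conjugation list 2 of 7 were higher (28.6%; 1 without T47D-Y replicate 3) and 3 were lower (42.9%). UBE2L6, the conjugating enzyme, had 813, 804 and 838 in T47D-co and 678, 739.5 and 642 in T47D-Y (0.26 ± 0.09, adjusted p = 0.012), without a call once T47D-Y replicate 3 was left out (0.21). HERC5, the main ligase for ISG15, had 107, 87.2 and 114 in T47D-co and 143, 146 and 166 in T47D-Y and was lower (-0.56 ± 0.12, adjusted p = 0.00032).

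All 6 tested members of the PARP list were called (against 62.6% of all genes), 1 higher in T47D-co and 5 lower (83.3%, against 33%). The exception was PARP10, an ADP-ribosyltransferase, with 725, 803 and 750.3 scaled fragments in T47D-co, against 199, 249.6 and 231 in T47D-Y (1.75 ± 0.10, adjusted p = 2.1e-14). Of 6 antiviral TRIM genes 1 was higher and 5 were lower (83.3%), or 3 lower on the deposited scale or without T47D-Y replicate 2. TRIM38, a regulator of innate immune signalling, was almost without fragments in T47D-co (1.10, 5.45 and 4.74), against 286, 347 and 324 in T47D-Y (-6.22 ± 0.50, adjusted p = 3.9e-11). In cells given water it had 2.89, 0 and 1.15 in T47D-co, against 170.2, 202 and 166 in T47D-Y. TRIM25, the ligase that activates RIG-I, was the higher one (0.18 ± 0.04, adjusted p = 0.00023). The guanylate-binding proteins, GTPases of cell-autonomous defence, had differences of 0.43 ± 0.21 for GBP1 (adjusted p = 0.077), -0.62 ± 0.41 for GBP3 (adjusted p = 0.2) and 0.07 ± 0.37 for GBP4 (adjusted p = 0.89), all 3 named after their values were seen; on the deposited scale, with quantile normalization or without T47D-Y replicate 2, 1 of the 3 was called higher.

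Of the 23 other effectors tested, 5 were higher in T47D-co (21.7%, against 29.6% of all genes) and 15 were lower (65.2%, against 33%). NMI, an adaptor that binds STATs and IFI35, had 100.4, 91.7 and 88.9 scaled fragments in T47D-co, against 426, 418 and 426 in T47D-Y, with the groups far apart (-2.17 ± 0.12, adjusted p = 3.8e-14). Without IFN it differed by -2.39. EPSTI1, a stromal interaction protein induced by interferon and named after its values were seen, was the largest rise among these effectors. It had 32.0, 25.4 and 54.5 in T47D-co and 9.20, 7.21 and 3.96 in T47D-Y (2.29 ± 0.36, adjusted p = 3.8e-06). STARD5, a sterol-binding protein, was lower (-1.37 ± 0.08, adjusted p = 1.2e-13).

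**Figure D5:**
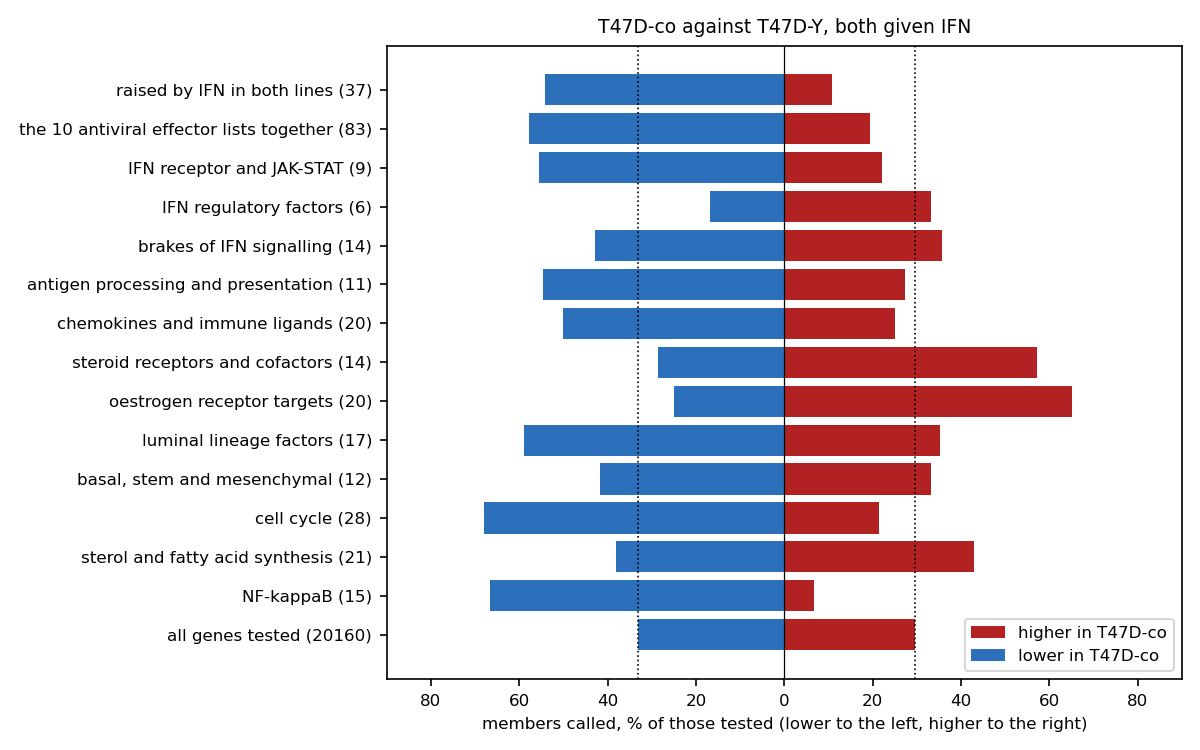
Share of the tested members of each list that were called higher (right, red) or lower (left, blue) in T47D-co against T47D-Y, both given IFN, with the number tested in brackets and the shares over all 20160 genes as dotted lines. The antiviral lists together reach 57.8% lower and 19.3% higher, while oestrogen receptor targets reach 25% lower and 65% higher.

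Antigen processing gave 3 higher (27.3%, against 29.6% of all genes) and 6 lower (54.5%, against 33%) in T47D-co of 11 tested. ERAP1 and ERAP2, the peptidases that trim peptides for MHC class I, went opposite ways. ERAP1 had 523, 474 and 491 scaled fragments in T47D-co, against 1073, 1055 and 1096 in T47D-Y (-1.12 ± 0.07, adjusted p = 4.1e-13). ERAP2 had 163, 179 and 179 in T47D-co and 34.6, 11.2 and 11.0 in T47D-Y (3.33 ± 0.34, adjusted p = 4.3e-09), or 0.32 for its shared locus. PSME1, a proteasome activator subunit, was higher (0.32 ± 0.05, adjusted p = 6.3e-06). HLA-B, an MHC class I heavy chain named after its values were seen, had 232, 173 and 359 in T47D-co and 116, 127 and 63.2 in T47D-Y (1.31 ± 0.35, adjusted p = 0.0019). Class I genes are near-identical, so how reads were divided among them makes this value uncertain.

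Of 20 chemokines and immune ligands tested, 5 were higher in T47D-co (25%, against 29.6% of all genes) and 10 were lower (50%, against 33%). CXCL10, the interferon-induced chemokine that draws T cells, had 14.2, 8.15 and 5.92 scaled fragments in T47D-co, against 60.8, 47.7 and 65.7 in T47D-Y (-2.57 ± 0.50, adjusted p = 8.5e-05), and a like difference without IFN (-2.51). CXCL14, an epithelial chemokine, had 17.7, 15.6 and 16.6 in T47D-co and 2957, 3244 and 2981 in T47D-Y (-7.44 ± 0.27, adjusted p = 3.9e-18), the widest gap in the list. IL7, a lymphocyte growth factor, was at the other end with 7658, 6863 and 7674 in T47D-co and 255, 265 and 311 in T47D-Y (4.74 ± 0.08, adjusted p = 6.2e-25). IL18, an inflammasome cytokine, was lower (-1.17 ± 0.08) and CXCL12, a homing chemokine and oestrogen target, was higher (2.58 ± 0.19). TNFSF10, the death ligand TRAIL, had 266, 225 and 238 in T47D-co and 95.7, 100.2 and 94.9 in T47D-Y, with all T47D-co libraries above (1.31 ± 0.14, adjusted p = 1e-08). The sole type I interferon gene tested, IFNK, had 0.322, 0.835 and 0 in T47D-co and 16.5, 13.4 and 20.3 in T47D-Y, few fragments in either line (-3.70 ± 0.68, adjusted p = 3.4e-05).

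Among 14 steroid receptors and cofactors tested, 8 were higher in T47D-co (57.1%, against 29.6% of all genes) and 4 were lower (28.6%, against 33%), or 2 lower on the deposited scale or without T47D-Y replicate 1. The interval lay within 2-fold for 11 of the 14, and PGR, NR3C1 and ESR1 were the 3 called at 2-fold or more. ESR1, the oestrogen receptor, had 19286, 18349.9 and 19682 scaled fragments in T47D-co, against 4439, 4133 and 4745 in T47D-Y (2.11 ± 0.04, adjusted p = 3.4e-23). NR3C1, the glucocorticoid receptor, had 1197, 1249.6 and 1237 in T47D-co and 26.5, 27.9 and 30.3 in T47D-Y (5.40 ± 0.13, adjusted p = 5.3e-22), beside 5.30 ± 0.05 for PGR. Without IFN these 3 genes differed by 2.12, 5.57 and 5.25 in the same order. Of 20 oestrogen receptor targets, 13 were higher in T47D-co (65%, against 29.6% of all genes) and 5 were lower (25%, against 33%). STC2, a secreted stress hormone, differed by 4.23 ± 0.06, IGFBP4, a growth factor binding protein, by 3.14 ± 0.06, and GREB1, a receptor cofactor, by 2.81 ± 0.06. CCND1, the G1 cyclin D1, ran against them (-1.06 ± 0.04, adjusted p = 1.6e-18).

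Of 25 genes known to answer progestins and glucocorticoids, 11 were higher in T47D-co (44%, against 29.6% of all genes) and 10 were lower (40%, against 33%). NDRG1, a stress-response protein, differed by 2.86 ± 0.10 and ANGPTL4, a lipase inhibitor, by 2.90 ± 0.09. F3, tissue factor, was lower (-1.62 ± 0.09, adjusted p = 1.1e-14), and FKBP5, a receptor chaperone, was higher (0.73 ± 0.04, adjusted p = 7.7e-14). Luminal lineage genes gave 6 higher (35.3%) and 10 lower (58.8%) of 17. TFAP2B, a transcription factor of the AP-2 family, had 237, 228 and 218 scaled fragments in T47D-co, against 6215, 6231 and 6179.7 in T47D-Y (-4.76 ± 0.06, adjusted p = 8.9e-28). PRLR, the prolactin receptor, was higher (1.55 ± 0.03), while KRT18, a luminal keratin, and CDH1, E-cadherin, were lower (-1.26 ± 0.04 and -0.99 ± 0.02).

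Basal, stem and mesenchymal genes gave 4 higher (33.3%, against 29.6% of all genes) and 5 lower (41.7%, against 33%) of 12, or 3 lower with a filter at 50 scaled fragments, with TP63 lower (-2.65 ± 0.23) and CD44, the hyaluronan receptor, higher (1.71 ± 0.07). Among ERBB receptors and ligands 3 of 11 were higher (27.3%) and 3 lower (27.3%); ERBB4 was higher (2.75 ± 0.05), as was its family's ligand EGF (2.66 ± 0.13), and ERBB2 was lower (-0.56 ± 0.05). In the aryl hydrocarbon receptor pathway 5 of 7 were lower (71.4%) and none was higher, where 2 were higher on the deposited scale and 1 without T47D-Y replicate 3 or without T47D-co replicate 3. CYP1A1, the pathway's classical target, had 32.0, 33.6 and 26.1 in T47D-co and 143, 179 and 138 in T47D-Y given IFN (-2.29 ± 0.12, adjusted p = 3.5e-15). Without IFN it had 141, 141 and 136 in T47D-co and 597, 590.5 and 579.8 in T47D-Y, with a line difference of -2.07. IFN against water lowered it by a called -2.16 in T47D-co and -1.94 in T47D-Y. CYP1B1, a related P450, had a called interaction of -0.46 (adjusted p = 2.1e-06), with line differences of -1.86 with IFN and -1.41 without. AHR, the receptor itself, was lower (-0.64 ± 0.04, adjusted p = 1.9e-13).

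Of 28 cell cycle genes, 19 were lower in T47D-co (67.9%, against 33% of all genes) and 6 were higher (21.4%, against 29.6%). MKI67, the proliferation marker, had 9505, 9198 and 9451 scaled fragments in T47D-co, against 14350.0, 14936 and 14733 in T47D-Y (-0.64 ± 0.03, adjusted p = 1.7e-15). MCM4, a subunit of the replicative helicase, and TYMS, the thymidylate synthase, were lower too (-0.83 ± 0.03 and -0.92 ± 0.03). In the death and growth arrest list 9 of 24 were higher (37.5%, against 29.6%) and 10 were lower (41.7%, against 33%). TNFRSF10A, a TRAIL receptor, was lower (-1.52 ± 0.06) while its ligand was higher, and the CDK inhibitors CDKN2A and CDKN2B were higher (1.16 ± 0.05 and 1.74 ± 0.10).

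NF-kappaB genes gave 1 higher (6.67%, against 29.6% of all genes) and 10 lower (66.7%, against 33%) of 15. TRAF1, a signalling adaptor, had 18.7, 25.4 and 28.5 in T47D-co and 166, 143 and 119.8 in T47D-Y (-2.52 ± 0.21, adjusted p = 1.1e-10), and BIRC3, an inhibitor of apoptosis, differed by -1.50 ± 0.19 (adjusted p = 2.3e-07). NFKBIA, the inhibitor IkappaB alpha, differed by -0.38 ± 0.05. The 21 sterol and fatty acid synthesis genes were divided, with 9 higher (42.9%) and 8 lower (38.1%) in T47D-co and all intervals within 2-fold. IDI1 of the sterol pathway was higher (0.78 ± 0.04), while FDFT1 and HMGCS1 were lower (-0.80 ± 0.03 and -0.64 ± 0.04).

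The widest gaps between the lines given IFN were at genes found almost wholly in 1 line, which are described by their values. GFRA1, a co-receptor for the GDNF growth factors, had 8012, 7855 and 7754 scaled fragments in T47D-co, against 1.15, 10.8 and 5.26 in T47D-Y. ALB, serum albumin, had 37180.2, 33551 and 34415 in T47D-co and 13.8, 41.4 and 36.8 in T47D-Y. NR2F1, an orphan nuclear receptor, had 10154, 10438 and 10303 in T47D-co and 37.4, 61.5 and 39.9 in T47D-Y. The other 7 of the 10 largest rises were MAGEB2, a cancer-testis antigen, ARSJ, a sulfatase, SERPINA6, the corticosteroid-binding globulin, CCDC85A, NOVA1, a neuronal splicing factor, OLFML3, a secreted glycoprotein, and VCAN, the proteoglycan versican. Each had at least 291 scaled fragments in every T47D-co library given IFN and at most 10.5 in any T47D-Y library given IFN.

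On the other side, NDST4, a heparan sulfate enzyme, had 0, 0 and 1.19 scaled fragments in T47D-co, against 909, 838 and 912 in T47D-Y. SLC2A5, a fructose transporter, had 2.21, 2.72 and 1.19 in T47D-co and 1276, 1272 and 1271 in T47D-Y. SLFN11, an interferon-inducible restriction factor of the Schlafen family, had 2.21, 0.908 and 0 in T47D-co and 372, 371 and 339.5 in T47D-Y. Without IFN it had 0, 2.14 and 1.15 in T47D-co, against 327, 331 and 336 in T47D-Y. The other 7 of the 10 largest falls were APCDD1, a Wnt inhibitor, MYO3A, a myosin, SLC7A2, an amino acid transporter, LEMD1, GTSF1, a germline factor, VGLL3, a transcription cofactor, and CYP4F8, a P450 enzyme. Each had at most 8.30 in any T47D-co library and at least 347 in every T47D-Y library. All 20 genes were called with adjusted p no higher than 1.1e-12 and had no overlap between the groups, as the rule for naming them required.

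The same comparison in the libraries given R5020 after IFN was made in separate libraries. Of all genes, 13769 were called there (68.3%). STAT2 had 1018, 1007 and 945 scaled fragments in T47D-co given IFN and R5020, against 2807, 2813 and 3049.6 in T47D-Y given IFN and R5020 (-1.54 ± 0.04, adjusted p = 6.9e-21). ISG15 had 438, 368 and 413 in T47D-co and 527, 559.8 and 659 in T47D-Y and was called lower in T47D-co there (-0.52 ± 0.15, adjusted p = 0.0042), as were IFI6 (-0.60 ± 0.09) and DDX60 (-0.40 ± 0.12). IFI44L differed by -4.22 ± 0.36 and IFI27 by -2.08 ± 0.22 in those libraries, which also served to choose the interferon-raised set.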

How the data were processed

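Total RNA of 24 libraries was extracted with Trizol and sequenced on an Illumina MiSeq, per the labels' protocols. Per the submitters' processing notes, TopHat2 2.0.12 and Cufflinks 2.2.1 were used with GRCh37/hg19. The deposited values are a normalized signal, inferred from the values themselves to be the authors' estimated fragments divided by a size factor set within blocks of 6 libraries (each line with or without IFN). For entries alone at their locus, 97.77 to 99.07% of values were whole multiples of a library's step (within 0.05 of a step), against 64.52 to 66.87% over all entries, so no count test was run. Of 25541 entries with values, 27 under 11 repeated symbols were left out, and 1 further row held no values.

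The steps were undone and all 24 libraries put on one median-of-ratios scale from 14209 genes. Depth was 14141273 to 33607279 estimated fragments per library; it limits genes with few fragments. Limma 3.58.1 (R 4.3.3) with a variance trend was fitted to log2(scaled fragments + 1) with 8 group means, 16 residual and 8.05 prior degrees of freedom, for 20160 entries that reached 10 scaled fragments in 3 or more libraries. Tests were two-sided with Benjamini-Hochberg adjustment over all 20160, and called means an adjusted p under 0.05. The interferon-raised set required a call and at least a 2-fold rise in each line. The script was tested on simulated data. Differences are T47D-co minus T47D-Y. The members and the 29 gene lists were chosen with earlier results of these data known.

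Named genes were the 10 largest rises and 10 largest falls among called protein-coding genes with a mean of at least 50 scaled fragments in 1 group and no overlap, up to 4 called members of each list with the lowest adjusted p, a set of 30 hormone and interferon genes, the 8 interferon-raised genes with the largest difference in each direction, and the 5 largest called interactions in each direction. Genes outside this rule were chosen after their values were seen, and the text says so. A few genes that the rule names are not reported here. Replicate numbers were not taken to pair libraries. Alternatives covered the scale, pseudocount, filter, variance model, libraries in the fit, replicate block, shared loci and each library left out.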

Additional observations from a re-analysis of the deposited data

Results flagged for a closer look

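For 36 of the named genes the response to IFN differed between the lines by the test of that difference (limma, adjusted p under 0.05, without R5020). Values are the log2 response to IFN in T47D-co minus that in T47D-Y, which is the line difference with IFN minus the line difference without it.

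The response was lower in T47D-co by at least 2-fold for SAMD9L (-2.82), IFITM1/IFITM2 (-2.56), ISG15 (-2.44), IFIT1 (-2.35), IFITM3 (-2.35), IFIT2 (-2.23), DDX60 (-1.98), SAMD9 (-1.86), IFI6 (-1.80), OASL (-1.75), OAS2 (-1.69), IFI27 (-1.67), MX1 (-1.66), DDX60L (-1.59), IFI35 (-1.34), UBE2L6 (-1.20) and SAMHD1 (-1.13), most of them members of the antiviral lists. It was lower by less for OAS3 (-0.89), IRF7 (-0.78), LGALS3BP (-0.68), HERC6 (-0.66), BST2 (-0.63), EIF2AK2 (-0.54), B2M (-0.51), CYP1B1 (-0.46), TRIM25 (-0.33), STAT2 (-0.32), ZNFX1 (-0.28), ADAR (-0.25) and AHR (-0.25). A lower response is a smaller rise where IFN raises a gene and a larger fall where IFN lowers it. The direction of the IFN response of CYP1B1 and AHR is not given here. Of the named genes with a lower response, STAT2, EIF2AK2, HERC6, IFIT1, IFIT2, OASL and AHR lost the call without the 4 libraries that stand apart, at -0.29, -0.50, -0.56, -1.93, -1.49, -1.55 and -0.27. LGALS3BP lost it without T47D-co replicate 3 given water or T47D-co replicate 1 given IFN (-0.60 each).

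RP11-507K2.2 (-5.39) and the 5 genes with a more positive response in T47D-co, NCKAP1L (0.93), AL590867.1 (1.74), CTD-3126B10.1 (2.11), DMD-AS2 (2.83) and RP11-116O18.3 (2.96), are entries that share their locus with others. The sum of the locus gave no called interaction for RP11-507K2.2 (-0.05), AL590867.1 (0.35), CTD-3126B10.1 (0.05) and RP11-116O18.3 (0.25), and each of these also lost its call in several of the fits with 1 library left out. For NCKAP1L and DMD-AS2 the sum of the locus turned to the other sign, as given below. Several genes listed above, among them OAS2, OAS3, IFIT1, IFITM3 and DDX60L, share their locus as well.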

How the results depend on the processing

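Between the lines given IFN, the count of genes called was 11151 to 13013 under the other settings and 11967 to 12131 with 1 library left out, against 12629. Without IFN the count was 11221 to 13453 and 11965 to 12133, against 12731, and with IFN and R5020 it was 11857 to 14304 and 13159 to 13284, against 13769. For the interaction it was 52 to 91 and 55 to 106, against 76, except that the deposited values as they stand gave 9525. The log2 scale of those values, averaged over the libraries of each block, is shifted by 0.07 between the lines with IFN, -0.22 without IFN and 0.30 for the interaction. Of the interferon-raised genes, 24 were called between the lines given IFN, against 18 to 26 under other settings and 21 to 24 with 1 library left out. Taking genes raised in either line gave 81 called, with a median of -0.51, because that set is larger. The set was chosen anew in each of these fits, so its members and size can differ from the 37. The median of the set raised in both lines ranged from -0.64 to -0.38.

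Of 158 genes followed between the lines given IFN, 142 were called, and 128 of these kept their call and direction under every alternative run. Beside the losses given with the genes named in the report, calls of such genes were lost on the deposited values by IFIT5 (-0.25) and USP18 (-0.37), with quantile normalization by IFIT5 (-0.26), USP18 (-0.33) and CMPK2 (-0.86), with pseudocount 0.5 by XAF1 (0.73), and with no filter by IFIT5 (-0.32) and XAF1 (0.73). Of 40 called interactions followed, 20 kept call and direction, and 13 lost the call without the 4 libraries that stand apart. Under the deposited values the interactions of ADAR (0.047), ZNFX1 (0.016), AHR (0.049) and RNF213 (0.067) turned. Those of STAT2 (-0.023) and TRIM25 (-0.029) lost their call there. With all entries at a locus summed, the following turned: with IFN OAS2 (-0.25), RP11-507K2.2 (0.18), DMD-AS2 (-3.13) and SOCS1 (0.20); without IFN DMD-AS2 (-3.09); for the interaction DMD-AS2 (-0.038) and NCKAP1L (-0.047); with IFN and R5020 OAS2 (-0.61), DDX60L (0.23) and DMD-AS2 (-3.23). A sum over a locus holds other genes by construction. Same-numbered libraries of the lines given IFN deviated together with correlations of 0.03, 0.09 and 0.07, against -0.0734 to -0.0045 for libraries of different number. All were small, so the numbers were not taken as pairs, although the same number gave the higher value for each replicate. With the replicate block 12623 genes were called with IFN, 12698 without, 78 for the interaction and 13771 with IFN and R5020, and 23 of the interferon-raised genes.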
